A study of Mus musculus with 6 samples.

Results

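The report concerns 10 genes of arginine and polyamine metabolism, taken by their symbols from a table of 55446 genes measured in crypts of the mouse ileum. They are the arginases Arg1 and Arg2, the arginine-making enzymes Ass1 and Asl, the ornithine decarboxylase Odc1 with its regulator Azin1, the acetyltransferase Sat1, and the enzymes Srm, Sms and Amd1, which act in spermidine and spermine synthesis. All 10 were found, each under a single identifier, and all 10 were among the 15762 genes that the authors tested. The condition called TMX was read as Adar iΔgut, which are mice with floxed Adar alleles (Adar fl/fl) and the transgene VilCreERt2, a tamoxifen-activated Cre driven by the villin promoter of the intestinal epithelium. The condition called con was read as Adar fl/fl mice without the transgene, labelled WT. Both genotypes had floxed Adar and received tamoxifen, the time is day 3, and 3 libraries numbered as biological replicates carry each genotype, although whether all of them entered the values is unstated. Ages are not given in the labels, and crypts are a preparation in which other cells of the mucosa may remain.

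Arginine is made from citrulline and aspartate by argininosuccinate synthase and lyase, and arginase cleaves it to urea and ornithine. Ornithine decarboxylase turns ornithine into putrescine, and aminopropyl groups from decarboxylated S-adenosylmethionine then make spermidine and spermine. Polyamines are required for proliferation of the intestinal epithelium. In enterocytes a set of mitochondrial enzymes also makes citrulline, which the gut exports for arginine synthesis in other organs.

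The values have 1 FPKM per condition (fragments per unit of transcript length and of library size), so levels may be compared between genes, but no spread between mice stands beside a value. A gene was called where the authors' q-value was under 0.05. Fold changes named as log2 are the deposited ones, TMX over con, of FPKM + 1. The authors' deposited table called 1041 genes higher and 899 lower in TMX, which is 6.60% and 5.70% of the tested genes and 12.3% in all. Adar was, in the authors' deposited table, at 52.0 FPKM in TMX and 19.5 FPKM in con, and it was not called (q = 0.0575). The targeted gene thus had the higher value in the condition read as Adar iΔgut, a difference that missed the threshold. A gene-level FPKM counts every exon, and the labels do not name the deleted ones, so the value checks neither the deletion nor that reading. Every direction below is therefore that of the condition labelled TMX. In these bulk samples, fewer cells of a type and less RNA per cell cannot be told apart.

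Of the 10 genes, 3 rose in TMX and none fell, against 12.3% called among all tested genes. The 3 were Arg1, Ass1 and Odc1. At an unadjusted p under 0.05, 4 genes were higher and 1 was lower in the authors' deposited table, the other two being Srm and Arg2. Before adjustment 22.8% of all tested genes pass that threshold, 12.1% higher and 10.7% lower in TMX, and the unadjusted counts below are to be read beside these shares. The members had a median log2 fold change of 0.35, beside 0.05 over all tested genes, and 7 of the 10 had a value above 0. Arg1 and Ass1 were under 1 FPKM in con and above it in TMX, and the other members were above 1 FPKM in both. Single values ran between 5.40 for Arg1 and -3.52 for Arg2, so the largest difference in each direction belonged to an arginase.

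**Figure D1:**
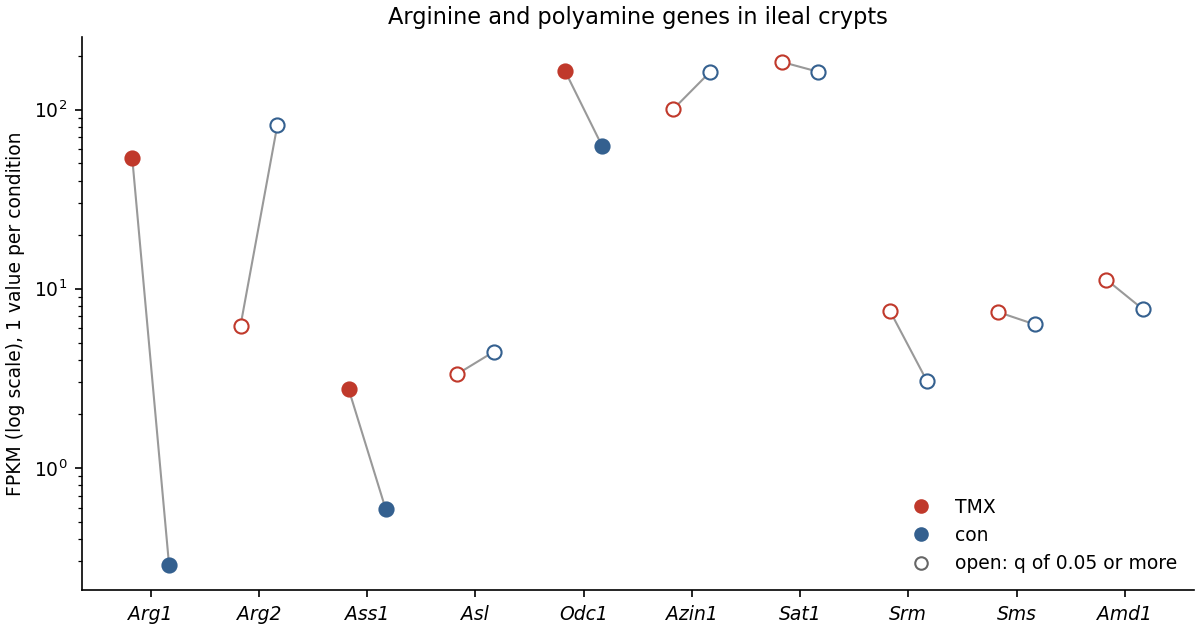
FPKM of the 10 genes on a log axis, 1 value for TMX (red, left) and 1 for con (blue, right), filled where the authors' q-value was under 0.05. Arg1 and Arg2 run in opposite directions, and Odc1, Azin1 and Sat1 lie at or above 62.8 FPKM in both conditions.

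RefSeq promoter windows of the GRCm38.p6 build were matched for 5 of the 10 genes, Ass1, Odc1, Sat1, Sms and Amd1, with 6 windows among them. Those of Ass1 and Odc1 are shown because both genes rose in TMX. Each runs 5′ to 3′ and covers 250 bases before and 50 bases after the annotated start, at chr2:31470020-31470319 on the plus strand for Ass1 and at chr12:17544623-17544922 on the plus strand for Odc1. Capitals mark an E-box (CACGTG), the sequence that MYC with MAX can bind.
Ass1: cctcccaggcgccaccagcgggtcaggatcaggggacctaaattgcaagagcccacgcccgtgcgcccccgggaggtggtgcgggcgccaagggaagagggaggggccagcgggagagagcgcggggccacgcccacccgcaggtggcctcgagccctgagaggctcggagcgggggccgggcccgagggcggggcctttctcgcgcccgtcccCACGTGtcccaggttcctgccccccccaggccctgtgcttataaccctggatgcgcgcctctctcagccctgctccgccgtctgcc
Odc1: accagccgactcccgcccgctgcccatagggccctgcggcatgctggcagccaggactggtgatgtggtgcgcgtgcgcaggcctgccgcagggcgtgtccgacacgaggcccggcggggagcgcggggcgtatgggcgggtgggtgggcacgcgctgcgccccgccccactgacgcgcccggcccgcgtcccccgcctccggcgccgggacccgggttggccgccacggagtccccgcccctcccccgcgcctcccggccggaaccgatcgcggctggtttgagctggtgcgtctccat
Both windows were rich in G and C, at 74.0% for Ass1 and 78.0% for Odc1, beside a median of 52.7% over 32851 promoter windows. Among the members that were not called, Amd1 was at 63.0%, Sat1 at 60.3%, and the windows of Sms at 74.3% and 50.3%. The E-box of Ass1 began 36 bases before the RefSeq start, and 1 of the windows of Sms held another, 196 bases before its RefSeq start. The GENCODE bounds of Ass1, given below, begin earlier, at 31470207, so the E-box of Ass1 lies inside them. An E-box was present in 7.15% of all windows. The window of Odc1 held none of the 4 motifs searched on both strands, which were CACGTG, the ATF4 element TTGCATCA, the AP-1 motif TGANTCA and the STAT motif TTCNNNGAA. The last 3 were found in 0.895%, 7.81% and 8.30% of all windows and in none of the 6 windows of these genes, and no matches overlapped. Sequence outside the windows, introns included, was not searched.

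The arginases showed opposite levels in the conditions. Arg1 (ENSMUSG00000019987.9, GRCm38 chromosome 10, 24915221 to 24927484, minus strand) encodes the cytosolic arginase known from liver and from macrophages. The authors' deposited table listed it at 53.4 FPKM in TMX and 0.287 FPKM in con, a log2 fold change of 5.40 with the q-value 0.00112, the lowest in the table and shared by 704 genes. Its plain FPKM ratio was 186, a log2 value of 7.54, since the added 1 lowers the fold change of a gene so low in con. By log2 fold change it stood at rank 19 from the top of the 15762 tested genes, and 10 of the 19 genes at or above its value were called. Its level in con was below that of most tested genes, of which 5.81% were lower, and its level in TMX was above 92.1% of them. No 50-base window of an annotated Arg1 transcript occurred in a transcript of another gene.

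Arg2 (ENSMUSG00000021125.6, chromosome 12, 79130777 to 79156301, plus strand) encodes the mitochondrial arginase and was the more abundant form in con. It was at 6.21 FPKM in TMX and 81.6 FPKM in con in the authors' deposited table, with a log2 fold change of -3.52. Its p-value of 0.01585 gave a q-value of 0.1001, so Arg2 was not called in the authors' deposited table. Of the 37 tested genes with a value as low or lower, 23 were called. The deposited locus of Arg2 reaches over Vti1b, which lies on the opposite strand and overlaps its end. Of the 50-base windows of Arg2, 21.2% also occurred in transcripts of other genes, 17.1% in those of Vti1b. Vti1b was at 65.5 FPKM in TMX and 83.8 FPKM in con (q = 0.794, authors' deposited table). The sources used here do not give strandedness, so reads from the overlap cannot be assigned to either gene.

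The summed level of both arginases was 59.6 FPKM in TMX and 81.9 FPKM in con. Arg1 made up 89.6% of that sum in TMX and 0.350% in con. The ratio of Arg1 to Arg2 was 8.60 in TMX, whereas in con Arg2 exceeded Arg1 by 285-fold. No test of the ratio was possible with 1 value per condition.

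**Figure D2:**
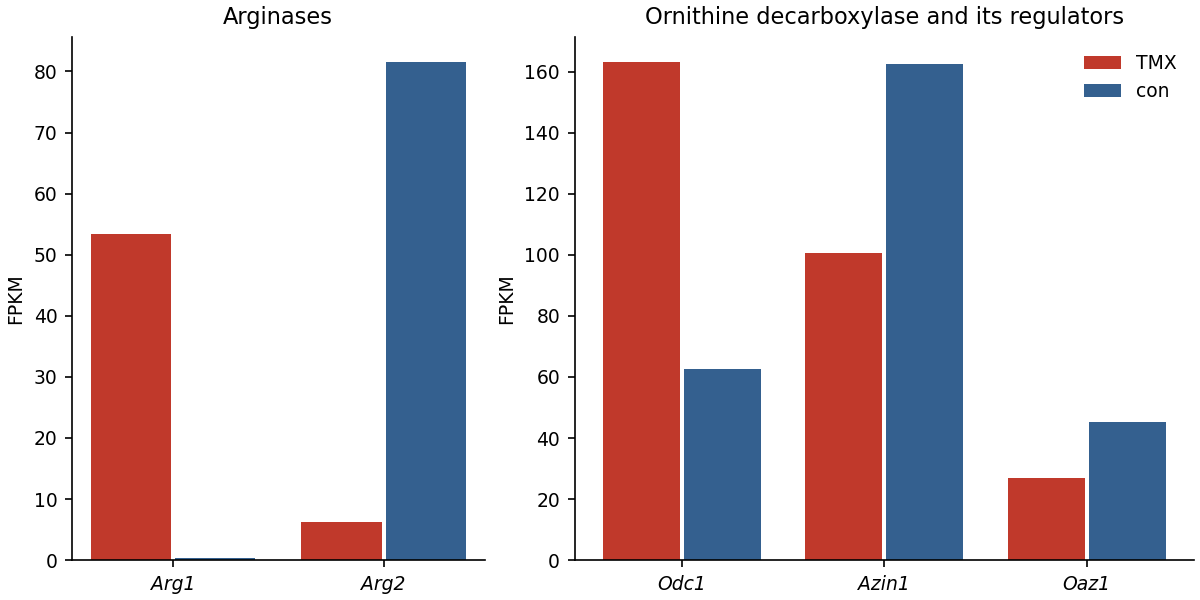
FPKM (linear axes starting at 0) of the arginases on the left and of ornithine decarboxylase with Azin1 and Oaz1 on the right, as single bars for TMX (red) and con (blue). Arg1 stands at 53.4 in TMX and 0.287 in con, Arg2 at 6.21 in TMX and 81.6 in con, and Odc1 is above Azin1 in TMX and below it in con.

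Most markers of myeloid cells had higher values in TMX, as did Arg1 and most stromal and endothelial markers. With 1 value per condition, a shared direction does not show that genes varied together. Of 13 tested macrophage and monocyte markers, 9 rose and 1 fell in TMX, beside 12.3% called among all tested genes, and all 15 markers of the list summed to 199.8 FPKM in TMX and 17.03 FPKM in con. Lyz2, a lysozyme of myeloid cells, was the largest, at 135 FPKM in TMX and 4.201 FPKM in con (q = 0.00112, authors' deposited table). The scavenger receptor gene Marco was at 0.168 FPKM in TMX and listed at 0 in con by the authors' deposited table. Of 8 tested neutrophil markers 3 rose and none fell, which is 37.5% beside 12.3% among all tested genes. The counts were the same at an unadjusted p under 0.05. The 12 markers of that list summed to 229.6 FPKM in TMX and 2.50 FPKM in con. Of the sum in TMX 76.8% came from S100a8 (q = 0.547) and S100a9 (q = 0.553), which the authors' deposited table did not call, and the other 10 markers summed to 53.2 FPKM in TMX and 2.04 FPKM in con. The neutrophil surface marker Ly6g was at 36.2 FPKM in TMX and listed at 0 in con by the authors' deposited table, while the granule protein genes Elane and Camp were listed at 0 in both. Mpo and Ngp were listed at 0 in con as well.

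Of 8 genes known beside Arg1 in alternatively activated macrophages, 4 were tested. Mrc1, the mannose receptor, rose and none fell, with the same counts at an unadjusted p under 0.05. That is 25.0% called, beside 12.3% among all tested genes. All 4 tested genes had a log2 fold change above 0, with a median of 2.01. Mrc1 is also on the macrophage and monocyte list above, so its call and its level are counted in both lists. Mrc1 was at 5.68 FPKM in TMX and 0.570 FPKM in con (q = 0.00112, authors' deposited table). Chil3 was at 14.4 FPKM in TMX and 0.0860 FPKM in con (q = 0.433, authors' deposited table). Retnla was at 0.191 FPKM in TMX and listed at 0 in con by the authors' deposited table. The 8 genes summed to 25.8 FPKM in TMX and 1.11 FPKM in con. The part of myeloid cells in the level of Arg1 was not tested.

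Arginine synthesis was the step with the lowest summed level, 6.07 FPKM in TMX and 5.04 FPKM in con over its 2 enzymes. Ass1 (ENSMUSG00000076441.9, chromosome 2, 31470207 to 31520672, plus strand), argininosuccinate synthase, was at 2.74 FPKM in TMX and 0.591 FPKM in con in the authors' deposited table. Its log2 fold change of 1.23 passed the test (q = 0.0150, authors' deposited table), and the plain FPKM ratio was 4.63. Adjusted over every gene listed, with no filter on low values, the authors' p-value for Ass1 gave 0.0527, above the threshold. Of the 50-base windows of Ass1, 38.6% also occurred in the processed pseudogene Gm5424, which was at 0.234 FPKM in TMX and 0.111 FPKM in con in the authors' deposited table. Ass1 levels are uncertain to that extent.

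Asl (ENSMUSG00000025533.15, chromosome 5, 130011258 to 130029247, minus strand), argininosuccinate lyase, completes the same step. It was at 3.33 FPKM in TMX and 4.44 FPKM in con (log2 fold change -0.33, q = 0.737, authors' deposited table). Ass1 and Asl were thus near each other in TMX, with a ratio of 0.822, whereas Asl exceeded Ass1 by 7.51-fold in con.

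Odc1 (ENSMUSG00000011179.8, chromosome 12, 17544794 to 17551505, plus strand), the rate-limiting enzyme of polyamine synthesis, was the most abundant of the genes that rose. It was at 163 FPKM in TMX and 62.8 FPKM in con in the authors' deposited table. The log2 fold change of 1.37 passed the test (q = 0.00488, authors' deposited table). Among tested genes Odc1 stood at rank 349 by level in TMX and at rank 1184 in con. Of its 50-base windows, 24.3% also occurred in transcripts of 16 other genes, led by the processed pseudogene Gm7993, which was at 0.240 FPKM in TMX and 0.105 FPKM in con in the authors' deposited table.

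Azin1 (ENSMUSG00000037458.15, chromosome 15, 38487427 to 38519266, minus strand) encodes the antizyme inhibitor, an Odc1 homologue without enzyme activity that binds antizyme and so spares ornithine decarboxylase from degradation. In human cells its transcript is a known substrate of ADAR editing, which a gene-level FPKM does not measure. Azin1 was at 101 FPKM in TMX and 162 FPKM in con (log2 fold change -0.68, q = 0.329, authors' deposited table). Oaz1, the antizyme that targets ornithine decarboxylase for degradation, was at 27.0 FPKM in TMX and 45.2 FPKM in con (q = 0.163, authors' deposited table). The ratio of Azin1 to Oaz1 was 3.74 in TMX and 3.59 in con. Odc1 over Azin1 was 1.62 in TMX and 0.386 in con, and Odc1 over Oaz1 was 6.06 in TMX and 1.39 in con. Of the 4 genes listed as antizymes or antizyme inhibitors beside Azin1, 2 were tested and none rose or fell, with 1 lower at an unadjusted p under 0.05.

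The enzymes after ornithine decarboxylase were expressed at a lower level than Odc1 and none passed the test. Srm (ENSMUSG00000006442.10, chromosome 4, 148591503 to 148594993, plus strand), spermidine synthase, came nearest. It was at 7.52 FPKM in TMX and 3.07 FPKM in con, with a log2 fold change of 1.07 (q = 0.0610, authors' deposited table). Amd1 (ENSMUSG00000075232.5, chromosome 10, 40287458 to 40302186, minus strand), which supplies decarboxylated S-adenosylmethionine, was at 11.2 FPKM in TMX and 7.65 FPKM in con (q = 0.413, authors' deposited table). Of its 50-base windows 78.1% were shared with other genes, 76.7% with the near-identical Amd2, which was at 0.0608 FPKM in TMX and 0.0622 FPKM in con in the authors' deposited table. The sources used here do not say how reads were divided between Amd1 and Amd2.

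Sms (ENSMUSG00000071708.11, chromosome X, 157443855 to 157492287, minus strand), spermine synthase, was at 7.40 FPKM in TMX and 6.31 FPKM in con (q = 0.890, authors' deposited table). Srm and Sms stood at a ratio of 1.02 in TMX and 0.486 in con. Odc1 exceeded Srm by 21.7-fold in TMX and 20.5-fold in con. The 3 enzymes summed to 26.1 FPKM in TMX and 17.03 FPKM in con, and each had a log2 fold change above 0.

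Sat1 (ENSMUSG00000025283.15, chromosome X, 155213132 to 155216449, minus strand) acetylates spermidine and spermine for export or oxidation. It had the highest level of the 10 genes in TMX, at 184 FPKM, against 162 FPKM in con, where Azin1 was as high. Its log2 fold change was 0.18 (q = 0.870, authors' deposited table). A p-value that misses the threshold does not show that Sat1, Sms, Asl or Amd1 were equal in the conditions.

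**Figure D3:**
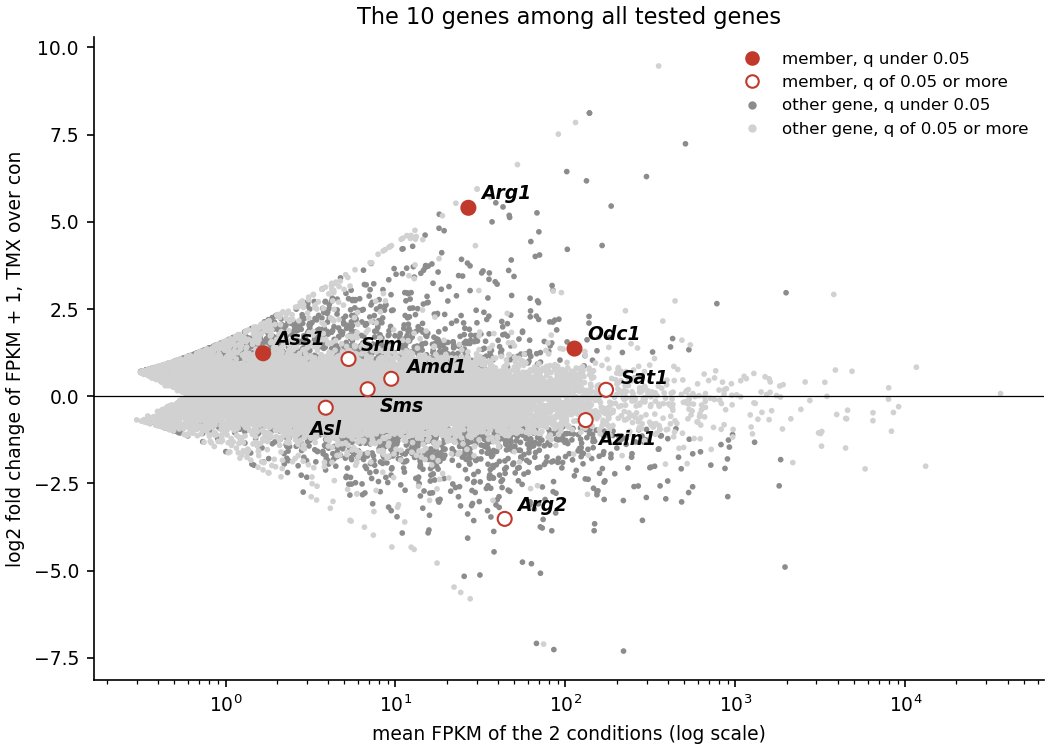
Log2 fold change of FPKM + 1, TMX over con, against the mean FPKM of both conditions (log axis) for all 15762 tested genes in grey and the 10 members in red, filled where the q-value was under 0.05. Arg1 at 5.40 and Arg2 at -3.52 lie near the edges of the cloud, and Sat1 and Sms lie near 0.

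Other genes of the pathway changed in both directions. Of 63 such genes on 8 lists, 50 were tested by the authors. In TMX 6 rose and 10 fell, which is 32.0% called, beside 12.3% among all tested genes. Their median log2 fold change was -0.14, beside 0.05 over all tested genes. Of the 16 called genes, 9 overlap another annotated gene, so their levels are less certain.

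Otc, Cps1 and Nags, mitochondrial enzymes that act in making citrulline in enterocytes, were among the genes that fell. On the list of urea cycle, ornithine, proline and glutamine enzymes 1 of 13 tested genes rose and 5 fell, with a median log2 fold change of -0.85. That is 46.2% called, beside 12.3% among all tested genes. Otc, ornithine transcarbamylase, was at 9.40 FPKM in TMX and 60.6 FPKM in con (q = 0.00112, authors' deposited table). Cps1, carbamoyl phosphate synthetase, was at 24.1 FPKM in TMX and 86.1 FPKM in con, and Nags, which makes its activator, at 1.37 FPKM in TMX and 7.29 FPKM in con, again at the q-value 0.00112 (authors' deposited table). Arg1 exceeded Otc by 5.68-fold in TMX, whereas Otc exceeded Arg1 by 212-fold in con.

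Also on that list Prodh, which oxidises proline, fell and was at 3.05 FPKM in TMX and 11.5 FPKM in con (q = 0.0116, authors' deposited table). Aldh4a1, which follows it in that route, fell and was at 4.13 FPKM in TMX and 15.2 FPKM in con (q = 0.0270, authors' deposited table). Oat, which links ornithine to glutamate and proline, was at 16.4 FPKM in TMX and 108 FPKM in con but was not called (q = 0.547, authors' deposited table). Aldh18a1 was not called either, at 18.0 FPKM in TMX and 19.2 FPKM in con (q = 0.959, authors' deposited table). Glul, glutamine synthetase, was the gene that rose, at 20.2 FPKM in TMX and 9.85 FPKM in con (q = 0.0263, authors' deposited table).

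Carriers of basic amino acids followed a similar split, with 1 of 11 tested genes higher, 4 lower and a median log2 fold change of -0.38. That is 45.5% called, beside 12.3% among all tested genes. Slc3a1 and Slc7a9 form the brush-border carrier for cystine and basic amino acids. Slc3a1 was at 40.4 FPKM in TMX and 141 FPKM in con (q = 0.00112, authors' deposited table). Slc7a9 was at 42.4 FPKM in TMX and 103 FPKM in con (q = 0.0437, authors' deposited table). Slc7a7, a subunit of the basolateral exporter, was at 17.5 FPKM in TMX and 48.6 FPKM in con, and the mitochondrial ornithine carrier Slc25a15 at 12.0 FPKM in TMX and 42.7 FPKM in con, each at the lowest q-value (0.00112, authors' deposited table). The carrier that rose was Slc7a1, a widely expressed importer of basic amino acids, at 16.3 FPKM in TMX and 8.05 FPKM in con (q = 0.0469, authors' deposited table).

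Most markers of mature enterocytes had lower values in TMX, as did Arg2, Otc, Cps1 and Nags, which again shows only a shared direction. Of 12 tested enterocyte markers 5 fell and none rose, which is 41.7% beside 12.3% called among all tested genes. Before adjustment 9 were lower and none higher (p under 0.05). The 12 markers summed to 5130 FPKM in TMX and 19100 FPKM in con and none was listed at 0, so the markers that define this epithelium were present in both conditions. Lct, lactase, had the lowest log2 fold change, at 0.479 FPKM in TMX and 21.4 FPKM in con (q = 0.00112, authors' deposited table). Of 6 crypt stem cell markers 1 fell and none rose, which is 16.7% beside 12.3% called among all tested genes, with 4 lower and none higher before adjustment (p under 0.05), and their summed level was 54.0 FPKM in TMX and 327 FPKM in con. Olfm4, the one that fell, was at 18.2 FPKM in TMX and 277 FPKM in con (q = 0.00112, authors' deposited table). The other 5 stem cell markers summed to 35.8 FPKM in TMX and 50.1 FPKM in con. The part of cell composition in the levels of Arg2, Otc, Cps1 and Nags was not tested.

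**Figure D4:**
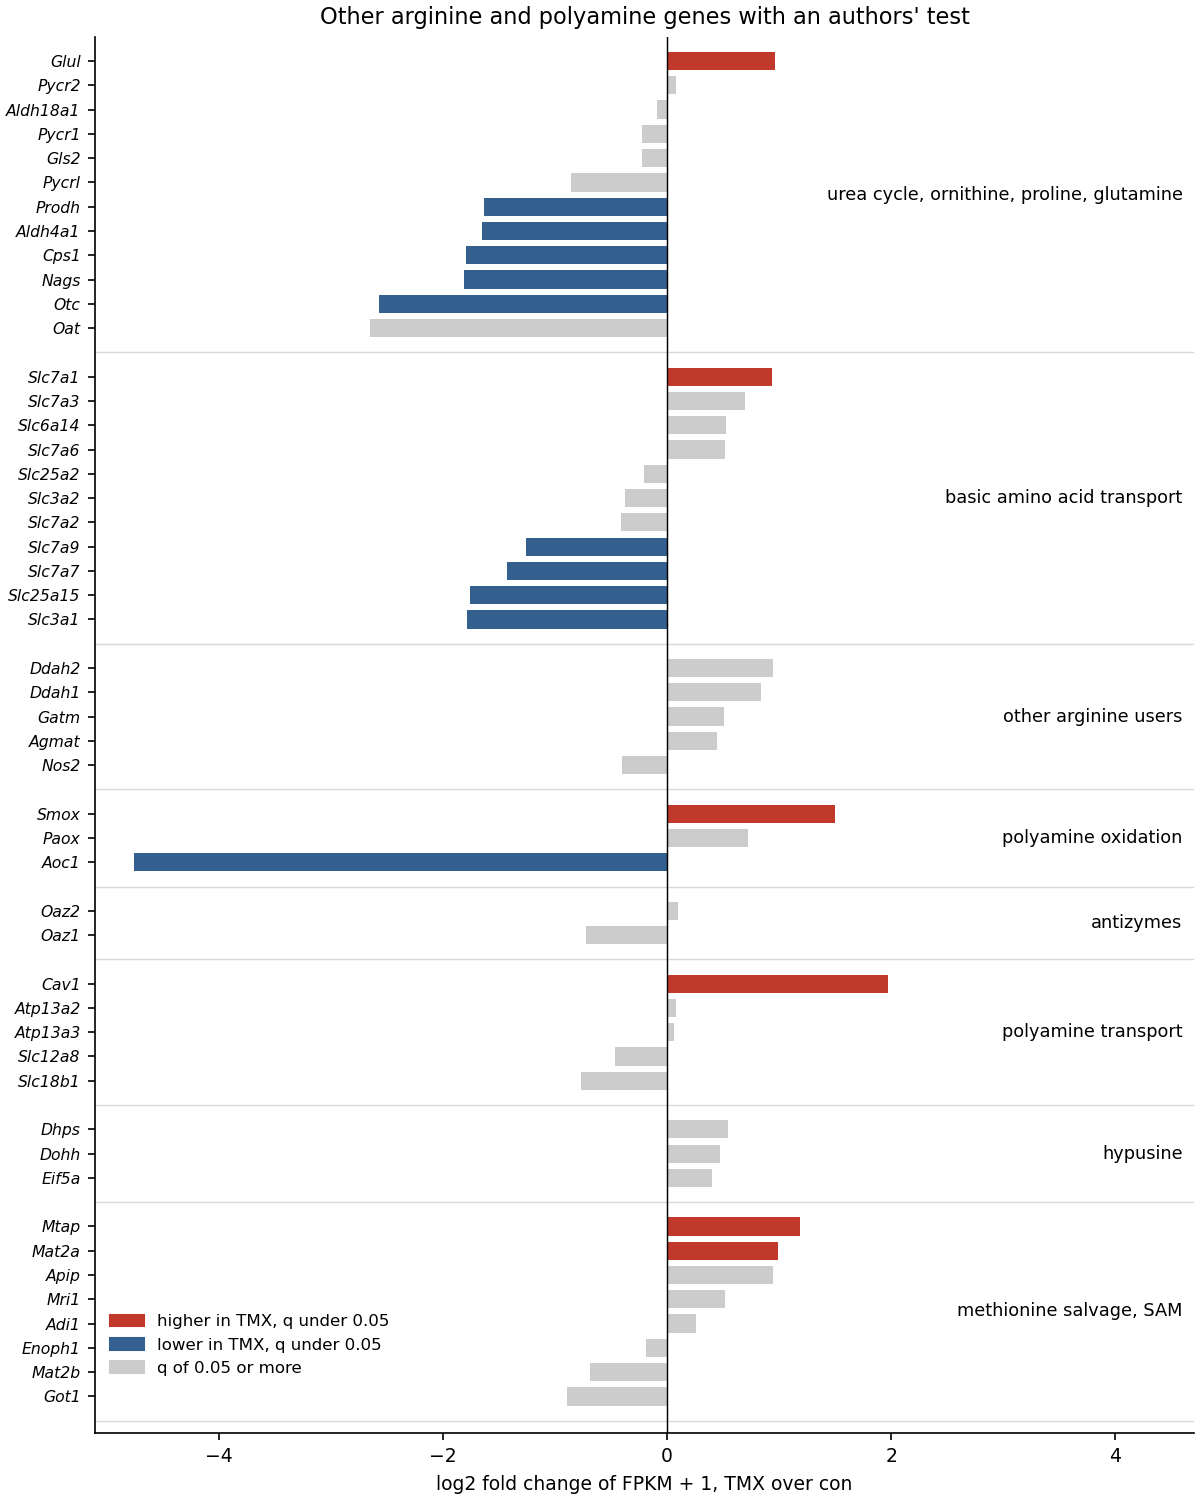
Log2 fold change of FPKM + 1, TMX over con, for 49 of the 50 tested genes of the wider pathway, grouped by role and coloured by the authors' call (red higher, blue lower, grey not called). The urea cycle and transport groups hold 9 of the 10 genes that fell, and the remaining one is Aoc1.

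Polyamine breakdown held the largest fall of the wider pathway. Aoc1, the diamine oxidase that degrades putrescine and histamine, was at 3.05 FPKM in TMX and 109 FPKM in con. Its log2 fold change was -4.76 (q = 0.00112, authors' deposited table). In the opposite direction Smox, spermine oxidase, was at 17.4 FPKM in TMX and 5.54 FPKM in con (q = 0.0136, authors' deposited table). Sat1 exceeded Smox by 10.6-fold in TMX and 29.3-fold in con. Paox, which oxidises the acetylated polyamines that Sat1 makes, was at 1.82 FPKM in TMX and 0.714 FPKM in con (q = 0.524, authors' deposited table).

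Methionine salvage recycles the by-product of spermidine and spermine synthesis. Its list, which also holds enzymes that make S-adenosylmethionine, had 2 genes that rose and none that fell among 8 tested. The called share was 25.0%, beside 12.3% among all tested genes. Before adjustment 3 were higher and 2 lower (p under 0.05). Mtap, which opens the salvage route, was at 6.70 FPKM in TMX and 2.38 FPKM in con (q = 0.0350, authors' deposited table). Mat2a, which makes S-adenosylmethionine outside the liver, was at 29.7 FPKM in TMX and 14.4 FPKM in con (q = 0.0167, authors' deposited table). Got1, an aminotransferase and the list's most abundant gene, was at 19.99 FPKM in TMX and 37.9 FPKM in con (q = 0.151, authors' deposited table). Got1 was below Mat2a in TMX and above it in con.

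The hypusine pathway, which uses spermidine to modify the translation factor eIF5A, gave no call among 3 tested genes, and none at an unadjusted p under 0.05. Eif5a was at 122 FPKM in TMX and 92.4 FPKM in con (q = 0.563, authors' deposited table). Nitric oxide and other arginine-using enzymes also gave no call among 5 tested genes, with 3 higher and none lower before adjustment (p under 0.05). Nos2, the inducible nitric oxide synthase that competes with arginase for arginine, was at 22.8 FPKM in TMX and 30.3 FPKM in con (q = 0.614, authors' deposited table). Among 5 tested genes of polyamine transport 1 rose and none fell, beside 12.3% called among all tested genes. The counts were the same at an unadjusted p under 0.05. A single call among 5 genes does not set this list apart from all tested genes. The gene that rose was Cav1, a caveolin also abundant in endothelium and stroma. Cav1 was at 13.1 FPKM in TMX and 2.60 FPKM in con (q = 0.00613, authors' deposited table). Of 10 tested stromal and endothelial markers 6 rose and none fell, which is 60.0% beside 12.3% called among all tested genes. Before adjustment 8 were higher and none lower (p under 0.05). The collagen gene Col3a1 was at 52.0 FPKM in TMX and 2.97 FPKM in con (q = 0.00112, authors' deposited table). All 11 markers of that list summed to 166 FPKM in TMX and 14.4 FPKM in con, none was listed at 0, and their part in Cav1 was not tested. The polyamine transport ATPase gene Atp13a3, the most abundant of the list, was at 35.7 FPKM in TMX and 34.1 FPKM in con (q = 0.969, authors' deposited table).

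**Figure D5:**
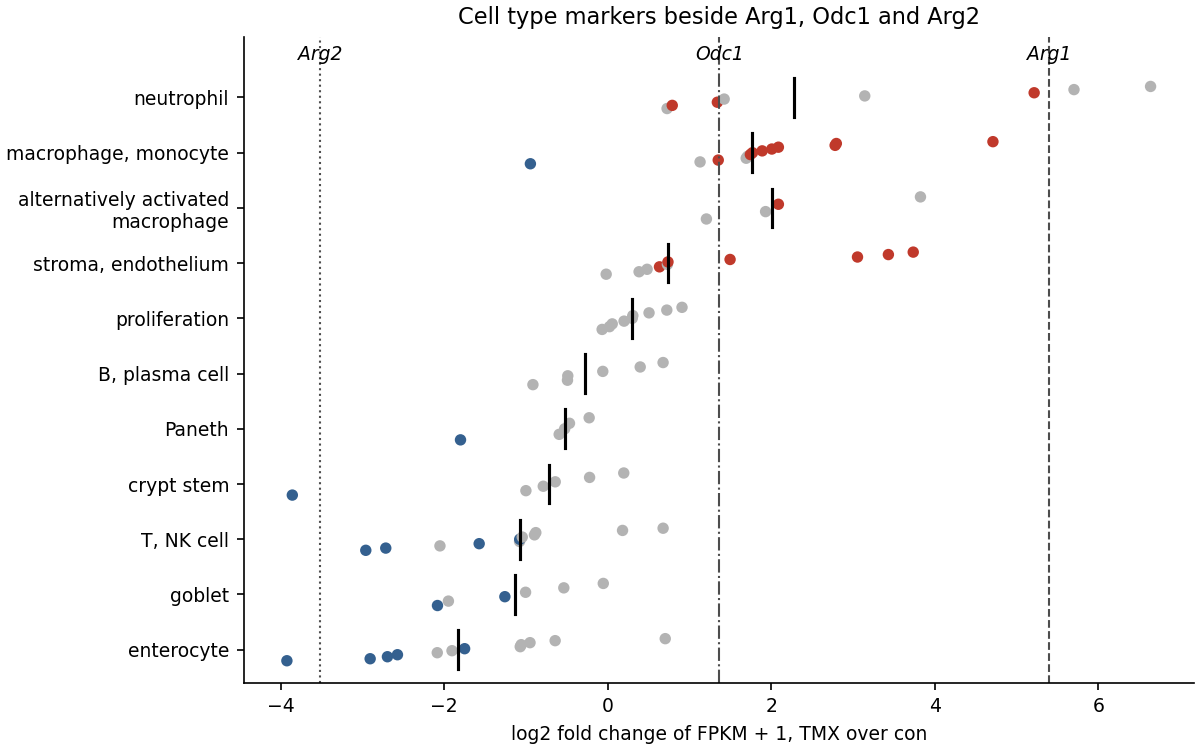
Log2 fold change of FPKM + 1, TMX over con, of tested cell type markers by list (red called higher, blue called lower, grey not called, black bar the list's median), with dashed, dash-dotted and dotted lines at Arg1, Odc1 and Arg2. Neutrophil and macrophage markers lie mostly to the right of 0 and enterocyte markers mostly to the left. Arg1 at 5.40 lies beyond all macrophage markers shown, while the neutrophil markers S100a8 at 6.64 and S100a9 at 5.70 lie beyond Arg1.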

How the data were processed

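Total RNA of ileal crypts was sequenced from 6 libraries, 3 per genotype. The submitters' processing notes name STAR and Cufflinks with the build GRCm38, and the sources used here give no versions or settings. The authors deposited, per the file headers, 1 FPKM per gene and condition, a log2 fold change of FPKM + 1, a test score, a p-value and a q-value. No value per library was used, so depth is unknown, no error was computed and no new test was run, as planned for such a file. The q-values equalled Benjamini-Hochberg values over the 15762 genes with status OK, to within 5.25e-07. The 60 genes with status HIDATA include none of the 10 members and were left out. Reading con as the Adar fl/fl libraries leaves TMX for those of Adar iΔgut, although both had tamoxifen. The members and gene lists were chosen with earlier results of these data known. Named genes were the members, all called genes of the wider pathway, the most abundant gene of each pathway list, the called marker with the largest change, markers at 0, and Adar; other named genes were chosen after their values were seen. The result for 1 pathway gene that this rule names is not reported here. Coordinates are from GENCODE vM21, 1-based, promoters from RefSeq (GRCm38.p6). Shared sequence was counted as 50-base windows of annotated transcripts found exactly, on either strand, in another gene's transcripts. Alternatives were other thresholds, adjustments, pseudocounts and scalings. The adjustment was tested on simulated data. The software was numpy 2.4.6 and pandas 2.3.3 under Python 3.11.15, with figures from matplotlib 3.10.9.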

Additional observations from a re-analysis of the deposited data

How the results depend on the processing

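The 10 log2 fold changes kept their direction under each of 4 alternatives, which were a pseudocount of 0.1, the plain ratio, scaling to the sum of FPKM and centring on the median. Scaling to the sum moved the median log2 fold change of all tested genes to 0.25, beside 0.05 as deposited. Arg1 ranged over 5.35 to 7.54 and Ass1 over 1.18 to 2.21. Of the 3 members that rose, 2 passed at a q-value under 0.01 and 2 passed when p-values were adjusted over every gene listed. All 3 also passed over genes with a mean of at least 1 FPKM and with a fold of at least 2. The 6 wider pathway genes that rose became 1 at a q-value under 0.01, 2 when adjusted over every gene listed and 3 with at least a 2-fold change of FPKM + 1. By the plain FPKM ratio all 6 exceed 2-fold, so the added 1 accounts for that last count. The 10 that fell became 7, 8 and 10. No paired analysis was possible because the table holds 1 value per condition, and for the same reason no library could be left out in turn.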

Other observations

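Of 13 tested regulators known for these genes, 2 rose and none fell in TMX, which is 15.4% beside 12.3% called among all tested genes. Before adjustment 3 were higher and 1 was lower (p under 0.05). Myc, a transcription factor for which Odc1 is a known target, was at 35.3 FPKM in TMX and 7.51 FPKM in con (q = 0.00112, authors' deposited table). Its partner Max was at 54.8 FPKM in TMX and 96.4 FPKM in con (q = 0.171, authors' deposited table). Cebpb, known to act at Arg1 in macrophages, was at 5.65 FPKM in TMX and 1.49 FPKM in con (q = 0.0465, authors' deposited table). Stat6, which carries the interleukin signal that induces Arg1 in those cells, was at 15.6 FPKM in TMX and 19.0 FPKM in con (q = 0.743, authors' deposited table). Proliferation genes gave no call among 9 tested, with 2 higher and none lower before adjustment (p under 0.05) and a median log2 fold change of 0.30.

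Markers of other cells gave these values. Of 11 tested T and NK cell markers 4 fell and none rose in TMX, which is 36.4% beside 12.3% called among all tested genes. Before adjustment 5 were lower and none higher (p under 0.05). The largest change was that of Gzmb, a granzyme, at 3.40 FPKM in TMX and 33.2 FPKM in con (q = 0.00112, authors' deposited table). Goblet cell markers fell for 2 of 6 tested (33.3%, beside 12.3% among all tested genes) and rose for none. Before adjustment 3 goblet cell markers were lower and none higher (p under 0.05). Clca1 was at 183 FPKM in TMX and 777 FPKM in con (q = 0.0491, authors' deposited table). Paneth cell markers fell for 1 of 5 tested and rose for none, beside 12.3% called among all tested genes. The counts were the same at an unadjusted p under 0.05. The Paneth cell gene that fell, Itln1, was at 400.3 FPKM in TMX and 1396 FPKM in con (q = 0.010001, authors' deposited table). B and plasma cell markers gave no call among 6 tested, with 1 higher and none lower before adjustment (p under 0.05).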
